A study of Homo sapiens with 6 samples.

Results

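The ligands of NKG2D were followed here in a small cell lung cancer line given a chemotherapy drug. They are the 8 human genes MICA, MICB, ULBP1, ULBP2, ULBP3, RAET1E, RAET1G and RAET1L. Members were chosen by gene symbol in the platform annotation, and the family itself was picked from results of this same drug against control comparison, so its fold changes are a description and no independent evidence. The 8 genes had 10 of the 31741 probes on the array and stood among 18336 genes with a probe of their own. ULBP1 and RAET1E had 2 probes each and the other members 1 each, and 0 probes named several genes with a member among them.

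The drug group was 3 flasks of NCI-H446 treated with a chemotherapy drug (drug 1, 3 and 4), and the control group 3 flasks of the same line given 15 µl of DMSO, the solvent (control 2, 5 and 6). The sources used here give neither the drug's name, dose and exposure time nor whether its flasks held the same volume of DMSO. The source names carry a different line number or DMSO volume in some rows, whereas the sample characteristics give NCI-H446 for all 6 samples and 15 µl for each control, which was used. RNA of each flask was labelled with Cy5 and hybridised to its own Phalanx OneArray, a single-colour microarray of long oligonucleotides. Error is the spread between separate flasks of 1 line, which says nothing of other lines.

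NKG2D is an activating receptor of natural killer cells and of some T cells. It is encoded by KLRK1 and signals through the adaptor HCST. Its ligands are distant relatives of MHC class I that do not present peptide; most healthy cells carry little of them on the surface, and stress, DNA damage or transformation can raise them. MICA and MICB lie in the MHC on chromosome 6 and are transmembrane proteins. The ULBP and RAET1 genes lie in a separate cluster on the same chromosome, and their products are held in the membrane by a lipid anchor or a transmembrane segment. An array reads RNA, so the amount of ligand at the cell surface was not measured.

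Promoter sequences are printed for the 4 members that rose, and for RAET1L, a close relative that was not called, so that the members can be compared base by base. All 8 members were found in the RefSeq promoter table (GRCh38.p14), and each sequence below is the 250 bases before the listed start, read 5′ to 3′ on the strand of the gene. Capitals mark every match, on either strand, to the GC box GGGCGG, the CCAAT box CCAAT, a heat shock element core GAANNTTC or TTCNNGAA, an AP-1 site TGANTCA or a TATA box TATAAA, and no match overlaps another. For MICA and MICB the listed start lies inside the annotated span of the gene, not at its edge.
ULBP2 (chr6:149941764-149942013, + strand): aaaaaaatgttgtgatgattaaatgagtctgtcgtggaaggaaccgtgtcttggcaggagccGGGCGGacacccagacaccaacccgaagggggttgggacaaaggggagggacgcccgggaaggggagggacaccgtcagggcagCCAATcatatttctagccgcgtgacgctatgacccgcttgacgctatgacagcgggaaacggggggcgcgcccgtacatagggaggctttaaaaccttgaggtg
RAET1G (chr6:149923122-149923371, - strand): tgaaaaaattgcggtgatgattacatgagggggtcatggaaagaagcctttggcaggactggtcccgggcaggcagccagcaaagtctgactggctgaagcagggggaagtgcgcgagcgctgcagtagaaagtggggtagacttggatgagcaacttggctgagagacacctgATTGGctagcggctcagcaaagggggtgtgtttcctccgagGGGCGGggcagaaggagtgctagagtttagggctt
MICA (chr6:31403345-31403594, + strand): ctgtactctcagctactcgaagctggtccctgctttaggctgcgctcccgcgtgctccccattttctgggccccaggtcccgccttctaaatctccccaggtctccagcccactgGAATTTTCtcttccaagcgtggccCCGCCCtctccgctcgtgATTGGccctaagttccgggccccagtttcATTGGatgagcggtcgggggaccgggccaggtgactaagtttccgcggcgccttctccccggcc
MICB (chr6:31497895-31498144, + strand): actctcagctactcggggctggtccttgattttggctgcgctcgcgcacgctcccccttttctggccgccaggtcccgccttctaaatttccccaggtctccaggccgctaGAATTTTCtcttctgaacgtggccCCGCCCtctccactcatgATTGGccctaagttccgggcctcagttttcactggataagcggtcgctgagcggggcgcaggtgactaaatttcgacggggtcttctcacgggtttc
RAET1L (chr6:150025533-150025782, - strand): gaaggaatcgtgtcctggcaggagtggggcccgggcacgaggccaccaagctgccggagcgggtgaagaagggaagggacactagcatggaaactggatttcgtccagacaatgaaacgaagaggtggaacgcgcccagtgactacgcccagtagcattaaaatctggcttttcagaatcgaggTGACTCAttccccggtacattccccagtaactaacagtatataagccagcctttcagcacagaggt

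The MICA and MICB promoters were near copies of each other. In a global alignment without a cost for end gaps they shared 209 identical bases out of 250, whereas the other 27 pairs of members shared from 101 to 154. Both held the heat shock element core GAATTTTC, its first base 135 bases before the start in MICA and 139 in MICB, and a reverse GC box 111 and 115 bases before it. GAANNTTC was found in 5.85% of the 27305 promoters of the table, TTCNNGAA in 6.72% and either of them in 11.7%. RAET1E held TTCNNGAA, which made 3 of 8 members with a core in either phase. A GC box was found in 6 of 8 members and in 42.3% of all promoters. The 6 were all 4 that rose, with ULBP1 and ULBP3, which were not called. A CCAAT box was found in 5 of 8 members and in 33.0% of all promoters. The 5 were all 4 that rose, with RAET1E, which was not called. RAET1L had neither box, and it held 1 AP-1 site (6.60% of all promoters). ULBP3 had the most GC boxes of the 8, 6 in all, and TATAAA occurred in 0 members and in 11.1% of all promoters. Such a match is a string of letters, and binding of a factor was not measured.

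Levels below are log2(intensity + 1) after quantile normalization between arrays, and a fold change is the drug mean minus the control mean on that scale, from limma over all probes. A probe was called at a Benjamini-Hochberg adjusted p under 0.05. By that rule 4 of the 10 member probes were called higher and 0 lower, where 15.4% of all probes were called higher and 16.1% lower. By the platform annotation the 4 called probes stand for 4 genes, ULBP2, RAET1G, MICA and MICB. Probe sequences were not used here, so whether a probe also reads a related member was not tested. The median log2 fold change was 0.63 over the 10 probes and -0.0057 over all probes. The 3 drug arrays lay wholly above the 3 control arrays at 6 member probes, and they did so at 21.4% of all probes.

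ULBP2, a lipid-anchored ligand, had the largest rise. Its deposited intensity was 5557, 5716 and 6468 on drug 1, 3 and 4, against 449, 459 and 312 on control 2, 5 and 6. The groups lay far apart, and the drug flasks differed little from each other. On the log2 scale ULBP2 averaged 12.56 ± 0.069 in drug flasks and 8.71 ± 0.32 in control flasks (SD, n = 3 each). The log2 fold change was 3.86 (SE 0.175, adjusted p = 1.87e-05 by limma), which is 14.5-fold, and it stood at place 32 among all 18336 genes ordered by rise.

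RAET1G, also called ULBP5, had the second largest rise. Its deposited intensity was 1188, 1108 and 1364 on drug 1, 3 and 4, against 91.0, 83.1 and 154 on control 2, 5 and 6. All 3 drug arrays were high, and the control arrays sat near the lower quartile of all probes, which was 6.86 on the log2 scale. RAET1G averaged 10.25 ± 0.080 in drug flasks and 6.93 ± 0.27 in control flasks (SD, n = 3 each), a log2 fold change of 3.32 (SE 0.161, adjusted p = 2.3e-05 by limma) at place 71 of all genes. Because the control level was dim, its 9.99-fold rise became 7.39-fold with 50 in place of 1 added before log2.

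MICA, the ligand known for its many alleles, had a deposited intensity of 12742, 12834 and 11386 on drug 1, 3 and 4, against 2575, 2653 and 2033 on control 2, 5 and 6. It averaged 13.61 ± 0.14 in drug flasks and 11.21 ± 0.14 in control flasks (SD, n = 3 each). Both groups were tight and did not overlap, and the log2 fold change was 2.41 (SE 0.135, adjusted p = 3.46e-05 by limma), which is 5.30-fold.

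MICB, its neighbour and closest relative, had a deposited intensity of 31674, 32046 and 24485 on drug 1, 3 and 4, against 5452, 6057 and 5725 on control 2, 5 and 6. Drug 4 was the lowest of the drug arrays for MICB as it was for MICA, and still stood far above every control array. MICB averaged 14.87 ± 0.26 in drug flasks and 12.45 ± 0.14 in control flasks (SD, n = 3 each). Its log2 fold change was 2.42 (SE 0.164, adjusted p = 7.2e-05 by limma), 5.34-fold, and so lay within 1 SE of that of MICA. In the order of all genes by rise, MICB stood at place 204 and MICA at place 209.

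**Figure D1:**
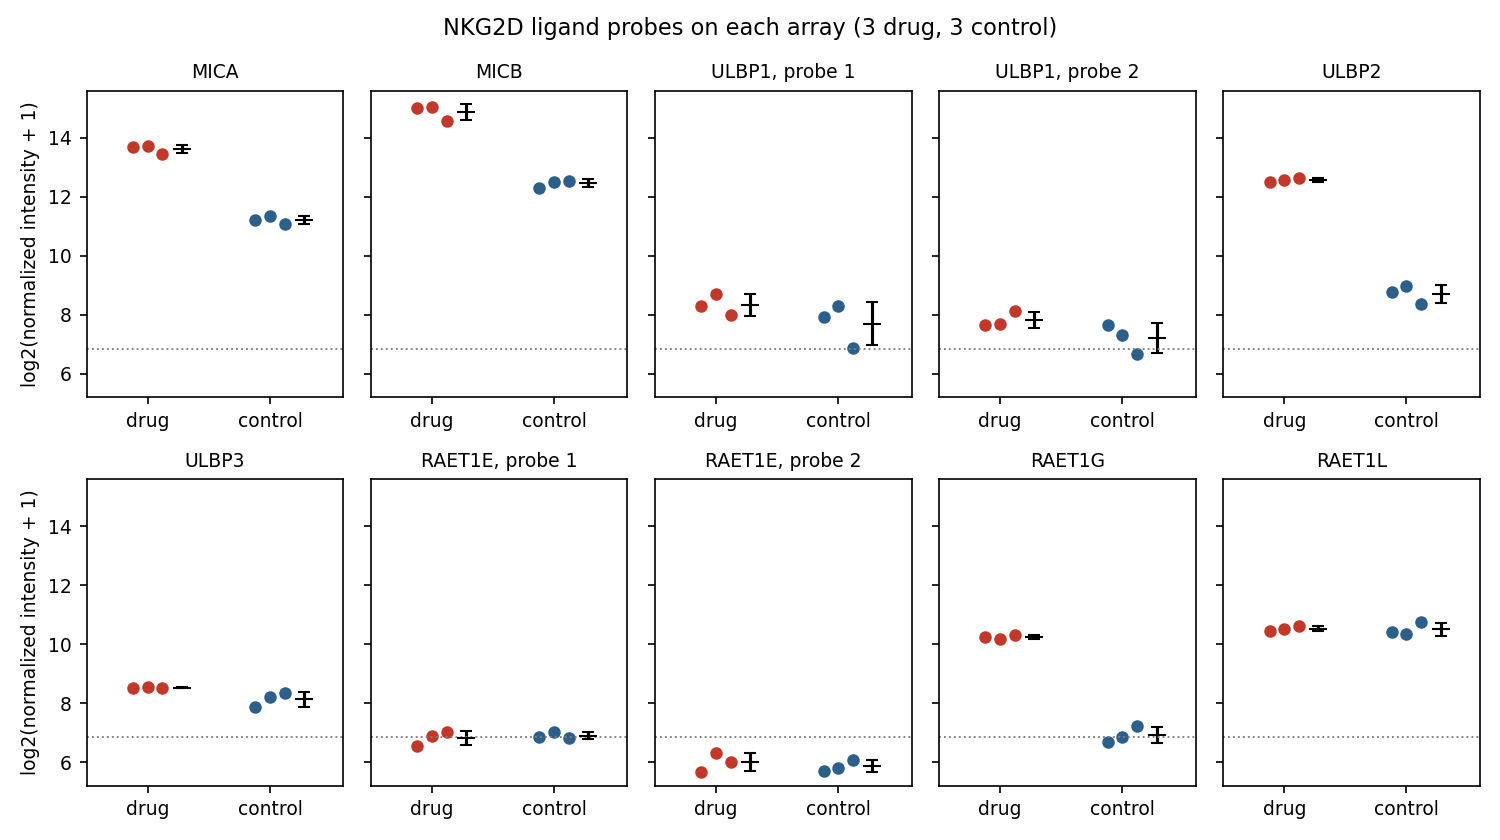
Log2(normalized intensity + 1) of the 10 NKG2D ligand probes on each array, drug flasks in red and control flasks in blue, with the mean and SD of each group in black and the lower quartile of all probes (6.86) as a dotted line. MICA, MICB, ULBP2 and RAET1G stand apart between the groups, while both RAET1E probes sit close to the dotted line or under it.

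The other 4 genes had no probe that was called. RAET1L, also called ULBP6, was clearly measured on every array, at 10.46, 10.51 and 10.62 on drug 1, 3 and 4, against 10.40, 10.36 and 10.76 on control 2, 5 and 6. The groups overlapped, and the log2 fold change was 0.022 with a 95% interval from -0.32 to 0.36 (adjusted p = 0.938 by limma). That interval lies wholly under those of ULBP2 and RAET1G, which ran from 3.45 to 4.27 and from 2.94 to 3.70. RefSeq also lists RAET1L as a synonym of ULBP2, and probe sequences were not used here, so the identity of this probe rests on the platform annotation.

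ULBP3 was at 8.53, 8.56 and 8.52 on drug 1, 3 and 4, against 7.86, 8.22 and 8.35 on control 2, 5 and 6. The drug arrays lay just above the control arrays, but the log2 fold change of 0.40 (SE 0.150) missed the threshold (adjusted p = 0.0927 by limma). On the values as deposited it was 0.57 and called (adjusted p = 0.0351 by limma), and that scaling shifts the median of all genes up by 0.20.

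ULBP1, a ligand that the stress factor ATF4 is known to induce, was faint and scattered at both probes. The deposited intensity of the brighter probe was 313, 424 and 291 on drug 1, 3 and 4, against 241, 271 and 120 on control 2, 5 and 6. That of the other was 208, 218 and 320 on drug 1, 3 and 4, against 194, 125 and 104 on control 2, 5 and 6. The normalized values of the groups overlapped at the brighter probe and lay side by side without overlap at the other. At both probes control 6 was the lowest of the 6 arrays, and the log2 fold changes were 0.63 (SE 0.367) and 0.62 (SE 0.266), with adjusted p of 0.267 and 0.130 by limma. Their 95% intervals reached from -0.24 to 1.50 and from -0.0041 to 1.25, so a rise of 2-fold was not distinguishable from none. The values turned on single arrays: without control 6 they were 0.22 and 0.36 (neither called), and without control 2 the second probe was called at 0.81 (adjusted p = 0.0498 by limma).

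RAET1E, also called ULBP4, was at the edge of what the array could show. The dimmer of its probes was under the lower quartile in both groups, and the brighter was just under it in drug flasks and just above it in control flasks. Their log2 fold changes were 0.13 (95% interval from -0.31 to 0.57) and -0.083 (95% interval from -0.45 to 0.29), with adjusted p of 0.686 and 0.767 by limma. The sign turned with the scaling, at 0.26 on the values as deposited and 0.13 after median centring for the second of these probes.

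**Figure D2:**
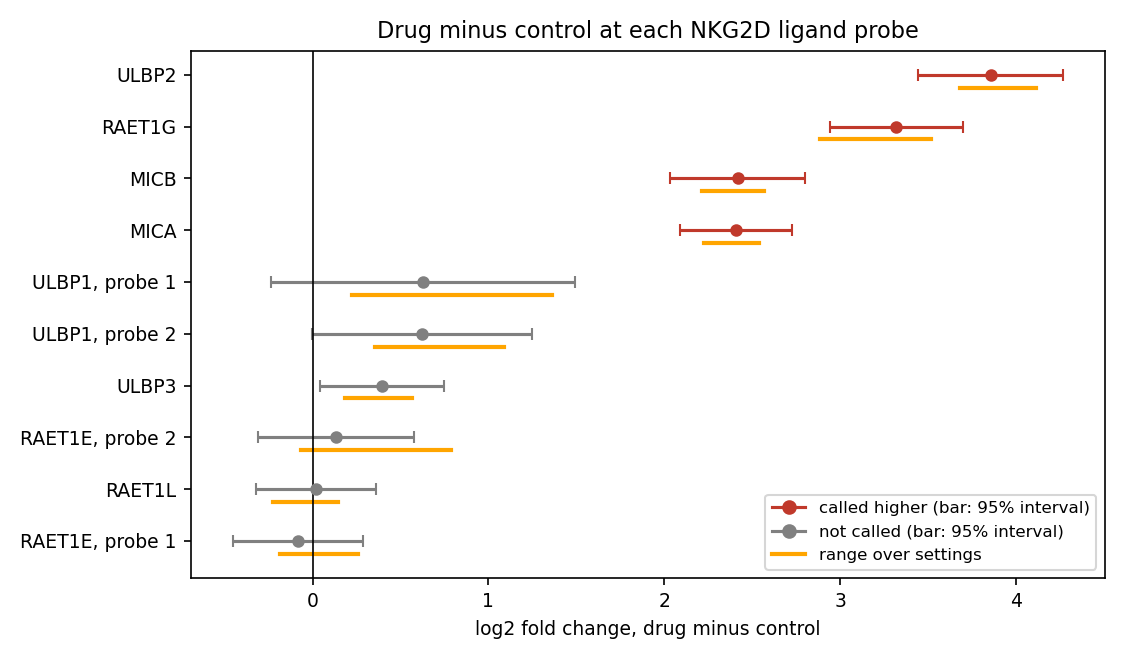
Log2 fold change (drug minus control) at each member probe with its 95% interval, in red where called higher and in grey where not called, and in orange the range over all settings tried. The 4 called probes lie between 2.41 and 3.86, and the 6 others between -0.083 and 0.63.

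The arrays also differed at the faint end of the deposited values. Control 2 and control 5 held 462 and 968 values below 0, against 0, 0 and 1 on drug 1, 3 and 4 and 0 on control 6. The lower quartile of the deposited intensities was 128, 130 and 131 on the drug arrays, against 104, 84.2 and 117 on the control arrays. With control 6 as the single control array, a setting added after the data were seen, the log2 fold changes of the ULBP1 probes were 1.36 and 1.09, and those of the 4 called genes kept their sign. That control arm has no spread of its own, so its calls assume that a lone control varies like the drug arrays, and they are not counted here. The part of background correction, which the sources used here do not describe, in the ULBP1, ULBP3 and RAET1E values was not tested.

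The members that rose were 1 pair in each of the separate blocks on chromosome 6, MICA with MICB and RAET1G with ULBP2. In the ULBP and RAET1 cluster the RefSeq order of the protein-coding genes is RAET1E, RAET1G, ULBP2, ULBP1, RAET1L and ULBP3, so RAET1G and ULBP2 are neighbours, with members that were not called on both sides. HCP5, a long non-coding RNA gene between MICA and MICB, also rose, to 10.97 ± 0.19 in drug flasks, against 9.62 ± 0.26 in control flasks (log2 fold change 1.35, SE 0.173, adjusted p = 0.000996 by limma, n = 3 each). Of the 12 measured genes that flank the 2 blocks, 3 on each side, 3 were called higher and 0 lower, where 17.6% of all genes by their brightest probe were called higher and 17.5% lower.

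PPP1R14C, an inhibitor of a protein phosphatase beyond ULBP3, rose by 2.49 (SE 0.136, adjusted p = 3.12e-05 by limma). PCMT1, a protein repair methyltransferase, rose by 0.81 at its brightest probe, a call lost with median centring (adjusted p = 0.0586 by limma). Its other probe was called at 1.01 (adjusted p = 0.000887 by limma). NUP43, a nucleoporin, was called at 0.49 (adjusted p = 0.0442 by limma), but its call was lost on leaving out any 1 of drug 1, drug 3, control 2, control 5 or control 6 (adjusted p from 0.059 to 0.160), on the values as deposited (0.120) and with median centring (0.330), and its other probe was not called (0.39). The other 9 flanking genes ranged from -0.44 to 0.42.

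**Figure D3:**
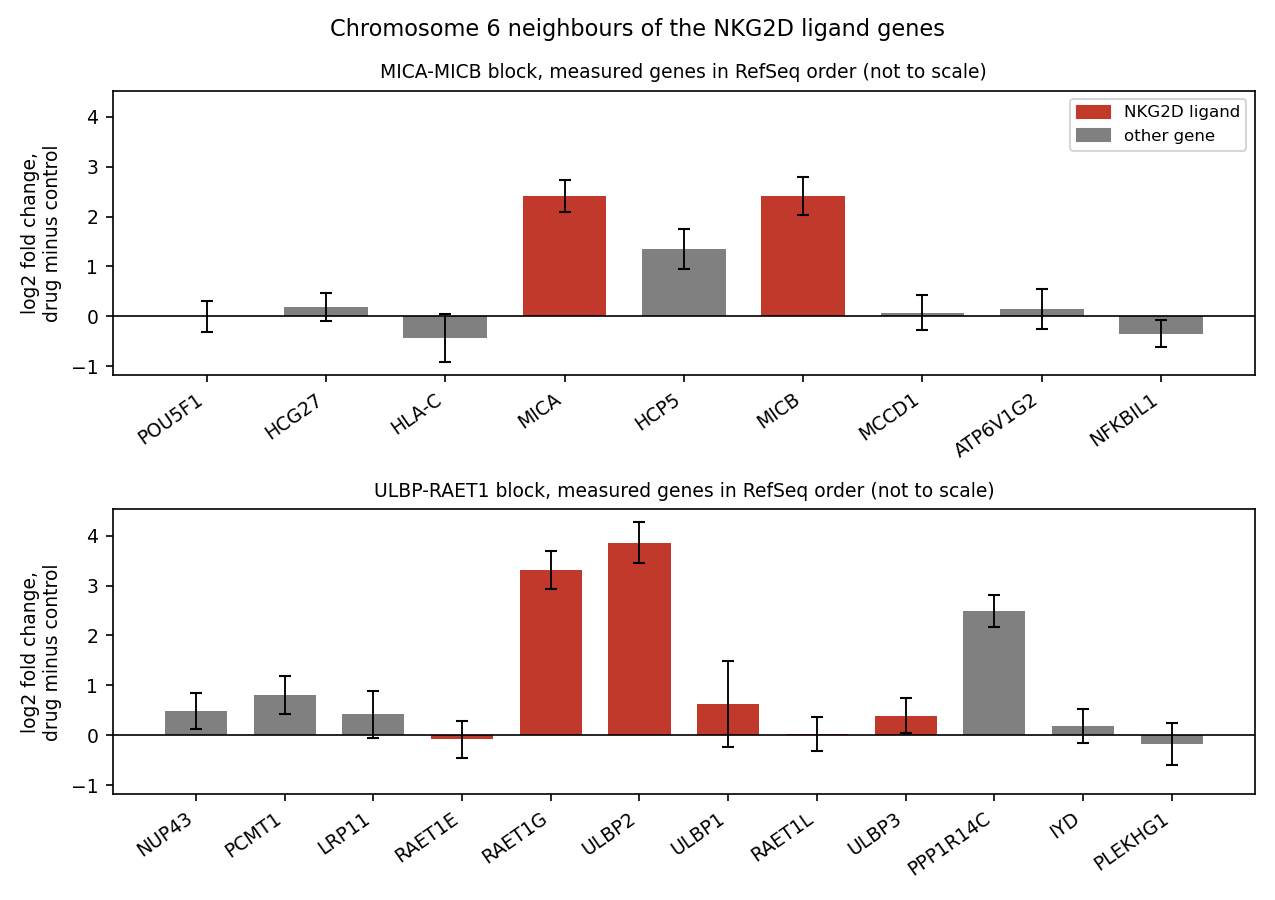
Log2 fold change (drug minus control) with its 95% interval for the measured genes of both blocks and 3 genes on each side, in RefSeq order along chromosome 6, with members in red and other genes in grey. MICA, HCP5 and MICB stand together above their flanks, and RAET1G and ULBP2 stand side by side.

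Across the 6 arrays, the genes most like ULBP2 were IRAK1BP1, LLGL2 and FBXO16, with a Pearson r of 0.9997, 0.9996 and 0.9996 between brightest probes. The 6 arrays are 3 drug and 3 control flasks, so the r mainly follows the gap between groups, and 438 genes had an r above 0.99. IRAK1BP1, a partner of the kinase IRAK1, rose by 0.85, LLGL2, a cell polarity protein, by 2.11 and FBXO16, an F-box protein, by 2.27 on the log2 scale.

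The receptor side of the axis was not called. The probe of KLRK1, the receptor itself, averaged 7.83 ± 0.064 in drug flasks and 7.97 ± 0.20 in control flasks (SD, n = 3 each), with a log2 fold change of -0.14 (adjusted p = 0.530 by limma). HCST, its adaptor, had a log2 fold change of -0.20 and TYROBP, an adaptor of related receptors, of 0.11, so 0 of 3 genes were called. Of 12 NK and T cell markers, 2 were called higher, near the 17.6% of all genes called higher, and 0 lower. Both, GZMB (0.80) and CD247 (0.59), were under the lower quartile in both groups. Without drug 3, drug 4, control 2 or control 6 the call of CD247 was lost and 1 was called. The summed normalized intensity of the 12 was between 11202 and 12146 on the drug arrays, against 9376 to 11179 on the control arrays. Most of that sum came from the brightest probes, those of CD3D and GNLY, neither of which was called. The mean log2 level of the 12 was between 7.79 and 7.96 on the drug arrays, against 7.75 to 7.80 on the control arrays. These ranges overlap, and 4 of the 12 were dim in both groups. Among the 12, the probe of PTPRC, the pan-leukocyte marker, was at 5.30 in drug flasks and 5.64 in control flasks, and that of CD3E, a T cell receptor subunit, at 5.70 in drug flasks and 5.59 in control flasks. CD3D, another such subunit, had its brightest probe well above the median of all probes (8.73). That probe was at 12.45 in drug flasks and 12.26 in control flasks. GNLY, a granule protein of killer cells, was also well above that median, at 12.11 in drug flasks and 11.86 in control flasks. Neither probe was called. The other CD3D probe was dim in both groups, at 6.19 in drug flasks and 3.20 in control flasks (SD 2.84). Its log2 fold change of 2.99 was not called (adjusted p = 0.117 by limma). The part of these markers in the ligand values was not tested.

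Ligands can also leave the cell surface by cleavage or on exosomes. Of 8 genes tied to that release, 2 fell and 0 rose, where 17.5% of all genes were called lower and 17.6% higher. RAB27A, a GTPase of exosome secretion, fell to 9.97 ± 0.097 in drug flasks, against 12.50 ± 0.16 in control flasks (log2 fold change -2.53, SE 0.132, adjusted p = 2.8e-05 by limma, n = 3 each), and by 2.62 on its other probe. MMP14, a membrane metalloprotease that cleaves MICA, fell by 1.24 (SE 0.179, adjusted p = 0.00171 by limma). The sheddases ADAM10 and ADAM17 were not called, at 0.24 and -0.14, nor was PDIA6, the disulfide isomerase that helps MICA shedding, at -0.24. With median centring PDIA6 was called lower, at -0.42 (adjusted p = 0.0456 by limma). The median over the 8 genes was -0.19, against 0.0075 over all genes.

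Among 20 measured genes linked to control of NKG2D ligands, 9 fell, 3 rose and the median log2 fold change was -0.36, where 17.5% of all genes were called lower and 17.6% higher. The list holds both genes that can raise the ligands and genes that can lower them, so these figures give no direction of control. NFKB1, a subunit of NF-kappaB, fell by 2.54, IGF2BP3, an RNA-binding protein that represses ULBP2 transcripts, fell by 1.76, and CHEK1, the kinase downstream of ATR, fell by 1.53 on the log2 scale. STAT3, which has been linked to lower MICA, rose by 1.38 and the histone deacetylase HDAC3 by 1.31. Of the DNA damage kinases that can raise these ligands, ATM fell by 0.59 (adjusted p = 0.00472 by limma) but was not called at its other probe (-0.37, adjusted p = 0.0504 by limma), and ATR was not called at either probe, with -0.077 (SE 0.143) at one and 1.85 (SE 1.20) at the other, whose drug arrays were widely scattered (SD 2.76). ATF4 fell by 0.54 at its brightest probe and had 0.016 at the other, which was not called, and the call was lost without drug 3 (adjusted p = 0.0594 by limma). HSF1, the heat shock factor that acts on the MICA and MICB promoters, was called at -0.48 (adjusted p = 0.043 by limma), a call lost on leaving out any array but control 5 (adjusted p from 0.0872 to 0.126).

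Ligands of other NK cell receptors were called in both directions. Among 16 such genes 4 fell, 3 rose and the median log2 fold change was -0.098, counts near the all-gene shares of 17.5% lower and 17.6% higher. PDGFD, a growth factor read by NKp44, rose by 2.15 (SE 0.118), CADM1, the ligand of CRTAM, rose by 1.63 (SE 0.180), and NECTIN2, a ligand of DNAM-1, rose by 0.71 (SE 0.106). NCR3LG1, the NKp30 ligand B7-H6, fell by 1.55 (SE 0.177), although its other probe had 0.046 and was not called, and CD58, the ligand of CD2, fell by 1.42 (SE 0.123). Without drug 3, 2 of the 16 were called lower in place of 4. With 16 or 50 added, with the brighter probes alone or with an intensity trend, 5 were called lower.

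Among 7 measured genes that can restrain NK or T cells 3 rose, 1 fell (2 without drug 4) and the median was 0.25. CD274, the checkpoint ligand PD-L1, rose to 10.76 ± 0.19 in drug flasks, against 8.76 ± 0.49 in control flasks (log2 fold change 2.00, SE 0.249, adjusted p = 0.000873 by limma, n = 3 each). CDH1, E-cadherin and a ligand of KLRG1, rose by 1.22, with a dim control level, and HLA-F rose by 0.69 at the brightest of its 3 probes, with 0.17 and 0.097 at the others, which were not called, and its call was lost with median centring (adjusted p = 0.0913 by limma). CEACAM1, an adhesion molecule that can inhibit NK cells, fell by 1.05.

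The cell line label was set against 7 small cell lung cancer markers. UCHL1 was bright in both groups, at 16.53 in drug flasks and 16.26 in control flasks, and INSM1 was at 10.40 in drug flasks and 10.05 in control flasks. NEUROD1 was dim in both groups, at 4.66 in drug flasks and 5.12 in control flasks. NCAM1 rose by 5.08 at the brightest of 3 probes and by 1.99 and 1.61 at the others, and SYP rose by 1.06. The control level of that NCAM1 probe was 7.20 and that of SYP 6.92, near the lower quartile of 6.86, and the other 5 markers were not called.

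**Figure D4:**
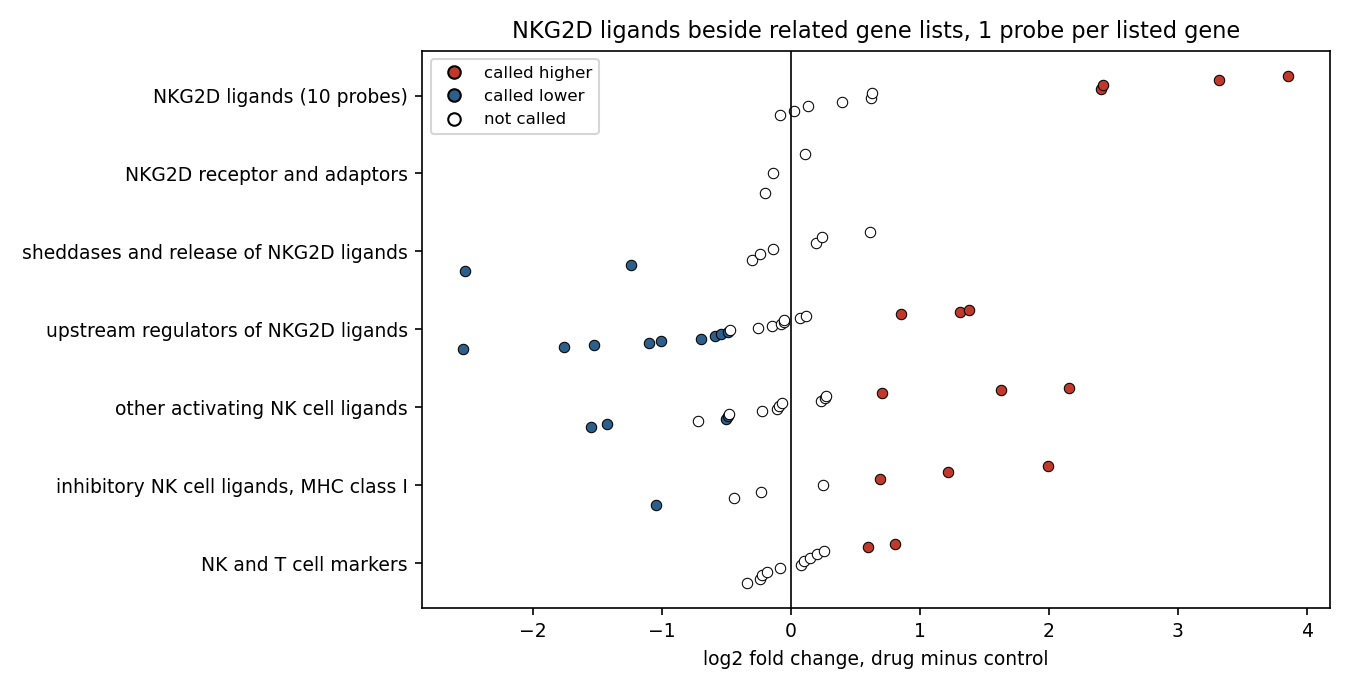
Log2 fold change (drug minus control) of the 10 NKG2D ligand probes and of the genes of 6 related lists, 1 probe per listed gene, in red where called higher, blue where called lower and white where not called. The ligands have 4 called points, all above 2. The lists of regulators, of other NK cell ligands and of inhibitory ligands have called points on both sides of 0.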

How the data were processed

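RNA of 3 drug and 3 control flasks was measured on single-colour arrays. The authors deposited linear intensities for 31741 probes; their background correction and scaling: not given in the sources used here. Array medians differed by 0.337 (log2), above the limit of 0.1, so intensities were quantile normalized, values below 0 set to 0, 1 added and log2 taken. Probe names came from the platform annotation, with symbols updated through RefSeq (GRCh38.p14): 24740 probes named 1 gene, 977 several and 6024 none. Each listed gene was read from its brightest probe, each member from every probe. The drug against control comparison used limma 3.58.1 in R 4.3.3 (lmFit, eBayes, two-sided, no covariate), adjusted over all probes of the table. A gene read from its brightest probe kept the adjusted p of that probe. The fit was tested on simulated data. Spot flags were not used, and the number of arrays limits the precision.

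The members and lists were chosen with earlier results of these data known. Named genes were all members, up to 5 called genes of each list with the largest change, KLRK1, HCST, ADAM10, ADAM17, PDIA6, ATM, ATR, ATF4 and HSF1, measured chromosomal neighbours, and the 3 genes most like ULBP2. TYROBP, PTPRC, CD3E, CD3D, GNLY, UCHL1, INSM1 and NEUROD1 were added to these once their values had been seen.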

Additional observations from a re-analysis of the deposited data

How the results depend on the processing

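The calls of MICA, MICB, ULBP2 and RAET1G were the same in 13 alternatives: values as deposited, median centring, 16 or 50 added, the brighter probes alone, an intensity trend or a robust fit, and each array left out in turn. Their log2 fold changes ranged from 2.22 to 2.50 (MICA), 2.22 to 2.57 (MICB), 3.68 to 3.95 (ULBP2) and 2.89 to 3.52 (RAET1G), with adjusted p of at most 0.000965 by limma. Member probes called higher numbered from 4 to 5 in these, and 0 were called lower in any of them. A fit with control 6 as the single control array was added after seeing the data; its control arm is 1 array assumed to vary like the drug arrays, so its calls are support for nothing. No paired analysis was possible because the drug and control flasks share no replicate number.

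Signs turned for small changes that were not called. RAET1L gave -0.12 with median centring and -0.22 with control 6 alone, and from -0.049 to 0.146 without single arrays (-0.022 without drug 4, -0.031 without control 2, -0.049 without control 5). The brighter RAET1E probe gave 0.26 on the values as deposited, 0.13 with median centring, from -0.18 to 0.054 without single arrays (0.054 without drug 1) and 0.0019 with control 6 alone. The other RAET1E probe gave from -0.018 (without drug 3) to 0.29 without single arrays and -0.065 with control 6 alone. KLRK1 gave 0.085 on the values as deposited and ADAM17 0.0042 with control 6 alone. On the values as deposited 1 release gene was called higher, and with median centring 3 were called lower in place of 2. NK and T cell markers called higher numbered 1 with median centring, with 50 added, with a trend and with control 6 alone, 0 with the brighter probes alone and from 1 to 2 without single arrays. Without single arrays, other NK cell ligands called lower numbered from 2 to 3 and inhibitory ligands called lower from 1 to 2. Other NK cell ligands called lower numbered 5 with 16 or 50 added, with the brighter probes alone and with a trend. The cause was not tested.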
